A study of Mus musculus with 4 samples.

Results

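The genes described here make prostaglandins from membrane lipid, carry their signal into the cell and break them down. They are Pla2g4a, Ptgs1, Ptgs2, Ptges, Ptgds, Ptgis, Ptger2, Ptger4, Ptgfr and Hpgd, taken as every non-control probe whose gene name in the array files equals one of these symbols. The 10 genes had 13 probes of 60 bases, of 50090 gene names and 61307 probes in all, and 3 genes (Ptgs2, Pla2g4a and Hpgd) had 2 probes each. RNA came from C3H10T1/2 cells, an immortal mouse embryo fibroblast line that stops growing at confluence and is used to score transformation by chemicals. The 2 arrays of the 3MC+TPA group held RNA of cells given 3-methylcholanthrene (3MC), a polycyclic aromatic hydrocarbon, at 2.5 µg/ml for 2 days. These cells then had 4 days in normal medium, 2 weeks with TPA (12-O-tetradecanoylphorbol-13-acetate, a phorbol ester known to promote tumours) at 100 ng/ml, and 4 weeks in normal medium. The 2 control arrays held RNA of cells of the same line cultured for 6 weeks, for which the labels name no agent. The titles of the 3MC+TPA arrays also give 6 weeks of culture, less than the steps above add up to. By those steps, RNA of the exposed cells was taken weeks after the last exposure. The exposed flasks could hold transformed foci and the cells around them together, and the array does not separate them, so fewer cells with a transcript and less RNA per cell cannot be told apart.

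Prostaglandins are short-lived lipid signals. Cytosolic phospholipase A2 frees arachidonic acid from membranes, a cyclooxygenase turns it into prostaglandin H2, and a terminal synthase makes from this one of several products, among them prostaglandins E2, D2 and F2alpha and prostacyclin. Each product leaves the cell and acts on its own G protein-coupled receptors, and the dehydrogenase Hpgd inactivates prostaglandin E2. In fibroblasts the pathway is known for its rapid and brief induction by serum, cytokines and phorbol esters, and in tumours for high Ptgs2 and low Hpgd.

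At the end of the culture, 3MC+TPA cells had higher RNA of Ptgds, the lipocalin-type synthase of prostaglandin D2, and of Ptger4, a prostaglandin E2 receptor, and lower RNA of Ptgfr, the prostaglandin F2alpha receptor, than control cells. Ptgds was at least 6.40-fold higher, Ptger4 at least 1.94-fold higher and Ptgfr at least 7.58-fold lower. Each bound sets a mean against the dimmest well-measured signals of the other group and leaves out the spread between arrays. With another background correction (normexp) the log2 differences were smaller in size, at 1.30, 0.23 and -1.67. Each falls short of its bound, so the bounds hold for the first correction only. Ptger4 lost its call with normexp (adjusted p = 0.253, limma). The phospholipase Pla2g4a, both cyclooxygenases and the synthases Ptges and Ptgis had lower means in 3MC+TPA cells, and none of these 5 differences passed the test. Ptger2, a further prostaglandin E2 receptor, and Hpgd were not well above background on any array. The test was limma on log2 signals, fitted over all 24977 features with signal on both arrays of at least 1 group and adjusted over all of them, with a threshold of 0.05. A feature is a gene name, read by its brightest probe. Of the 10 genes, 8 were tested and 3 were called, 2 higher and 1 lower. Over all features 15.9% were called, 7.49% higher and 8.37% lower. The 3 called genes passed the filter on dim probes only through the group in which they were high, which favours a difference. Of all features tested in this way, 63.3% with signal in 3MC+TPA cells alone and 74.3% with signal in control cells alone were called, and the count of 3 adds nothing beyond the single values. The other 5 tested genes were well above background on all 4 arrays. None of the 5 was called by limma, against 13.4% of all features of this kind, and 3 of the 5 had an unadjusted p under 0.05, against 30.9%.

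**Figure D1:**
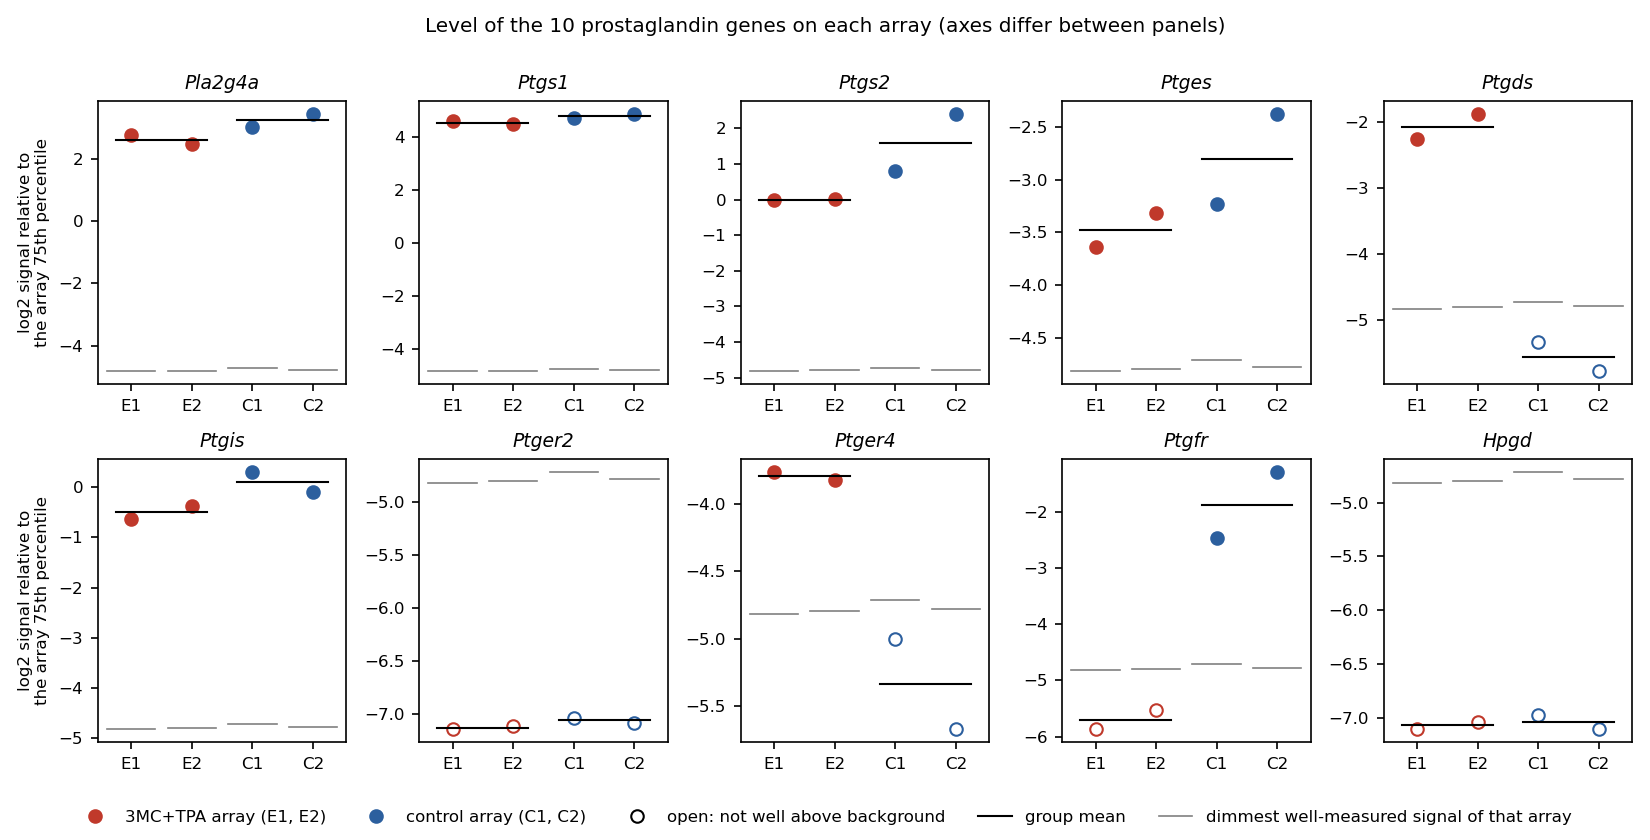
Level of each of the 10 prostaglandin genes on each array, in log2 units above or below the 75th percentile of that array (vertical axis, its range set for each panel), with 3MC+TPA arrays in red (E1, E2) and control arrays in blue (C1, C2). Open points were not well above background, black lines are group means and grey lines mark the dimmest well-measured signal of each array. Ptgds and Ptger4 cross that line in 3MC+TPA cells alone and Ptgfr in control cells alone, while Ptger2 and Hpgd stay below it on all 4 arrays.

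Levels are log2 processed signals after subtraction of each array's own 75th percentile, so that 0 is a bright spot and the dimmest well-measured spots lay between -4.82 and -4.72. Levels of different probes were not set against each other, since probes differ in how well they bind. The first step of the pathway is Pla2g4a, the cytosolic phospholipase A2 that prefers arachidonic acid. Its level was 2.74 and 2.47 on the 3MC+TPA arrays and 3.03 and 3.42 on the control arrays. Both 3MC+TPA arrays were thus below both control arrays, by a margin of the size of the gap between arrays of 1 group. The difference of the means was -0.62 ± 0.21 (SE, 95% interval -1.16 to -0.08), or 1.54-fold lower, with an adjusted p of 0.111 by limma. Pla2g4a has a second probe elsewhere in its transcript, and the pair is shown because it reads the same gene at separate places; both are printed as deposited, 5′ to 3′ and without capitals.
Pla2g4a brighter probe: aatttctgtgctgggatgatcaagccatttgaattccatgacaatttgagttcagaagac
Pla2g4a dimmer probe: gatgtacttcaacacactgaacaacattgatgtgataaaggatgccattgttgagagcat
The dimmer probe read 1.48 and 1.16 in 3MC+TPA cells and 1.73 and 2.16 in control cells. Its difference of -0.63 ± 0.22 (adjusted p = 0.121, limma over probes) was nearly that of the brighter one, also short of the threshold. Over all probes tested in this way, 15.5% were called, and of the 10 tested probes of these genes 3 were, each the single probe of its gene.

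Ptgs1 encodes the cyclooxygenase that most cells keep at a steady level. It read 4.61 and 4.50 in 3MC+TPA cells, against 4.72 and 4.87 in control cells. The difference was -0.24 ± 0.16 (SE, 95% interval -0.65 to 0.16) with an adjusted p of 0.338 by limma, and its sign was positive (0.11) without scaling between arrays. These arrays therefore fix no direction for Ptgs1. The interval leaves room for a fall of 0.65 on the log2 scale and a rise of 0.16.

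Ptgs2 encodes the inducible cyclooxygenase. Its level was -0.02 and 0.01 in 3MC+TPA cells, and 0.79 and 2.40 in control cells. The 3MC+TPA arrays read alike, with a gap of 0.0236, and the control arrays stood 1.61 apart. Of the 22647 features well above background on all 4 arrays, only 0.446% had a gap as large between the control arrays, and 93.1% had one at least as large as that of Ptgs2 between the 3MC+TPA arrays. Ptgs2 averaged -0.00 ± 0.02 in 3MC+TPA cells and 1.59 ± 1.14 in control cells (SD, n = 2 arrays each). The difference was -1.60 ± 0.53 (SE, 95% interval -2.94 to -0.26), or 3.03-fold lower, and with an adjusted p of 0.104 by limma it did not pass. Its second probe showed the same spread, with -0.23 and -0.12 in 3MC+TPA cells and 0.65 and 2.28 in control cells, and a difference of -1.64 ± 0.53 (adjusted p = 0.101, limma over probes). The control arrays set the size and the call. Without control array 1 the difference was -2.40 and passed (adjusted p = 0.00945, limma), while without control array 2 it was -0.79 and did not (adjusted p = 0.102). The spread between the control arrays was thus seen by both probes.

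Pla2g4a and Ptgs2 lie near each other on mouse chromosome 1. In the RefSeq gene table of GRCm38.p6, whose coordinates were not used because the array was drawn on mm9, only a pseudogene (Gm19136) and the non-coding gene Ptgs2os stand between them. Ptgs2os had 1 probe, at -7.14 and -5.77 in 3MC+TPA cells and at -6.75 and -4.82 in control cells, not well above background on any array. Ptgs1, Ptges, Ptgds and Ptgis are all on chromosome 2, Ptgfr on 3, Hpgd on 8, Ptger2 on 14 and Ptger4 on 15.

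Of the terminal synthases, Ptgds stood apart. Ptgds is the lipocalin-type prostaglandin D2 synthase, a secreted carrier protein as well as an enzyme, best known from brain, heart and testis. Its level was -2.26 and -1.88 in 3MC+TPA cells, against -5.33 and -5.77 in control cells, where its probe was not well above background. Both 3MC+TPA arrays lay far above the dimmest well-measured signal and both control arrays below it. Ptgds averaged -2.07 ± 0.27 in 3MC+TPA cells and -5.55 ± 0.31 in control cells (SD, n = 2 arrays each). The fitted difference was 3.48 ± 0.23 (SE, 95% interval 2.88 to 4.08; adjusted p = 0.00171, limma). Because the control level is only a bound, the change is given as at least 6.40-fold higher, the 3MC+TPA mean over the mean of the dimmest well-measured signals of the control arrays. With normexp background correction, which adds an offset and shrinks dim signals, the log2 difference was 1.30, short of that bound, and still passed. The value rests on 1 probe, which is printed with the 250 bases before the gene's RefSeq start (GRCm38.p6), the capitals marking the single match to the TPA response element TGANTCA, the binding motif of AP-1 factors.
Ptgds probe: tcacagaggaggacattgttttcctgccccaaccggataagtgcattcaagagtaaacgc
Ptgds promoter, chr2:25469750-25469999, minus strand: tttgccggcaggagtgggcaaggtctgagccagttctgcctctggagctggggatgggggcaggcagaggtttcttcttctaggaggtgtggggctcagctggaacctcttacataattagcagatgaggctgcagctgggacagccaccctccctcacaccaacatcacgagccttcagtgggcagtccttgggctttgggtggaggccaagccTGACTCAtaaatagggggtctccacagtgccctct
The match began 35 bases before the start. TGANTCA, searched on both strands, was present in 6.75% of 32851 RefSeq promoter windows of this length, and a match is no evidence of binding.

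The other tested synthases read lower in 3MC+TPA cells without passing the test. Ptges, the inducible synthase of prostaglandin E2 that works with Ptgs2, read -3.64 and -3.31 in 3MC+TPA cells and -3.23 and -2.38 in control cells. The groups did not overlap, but 3MC+TPA array 2 and control array 1 were closer than the 2 arrays of either group. The difference was -0.67 ± 0.32 (SE, 95% interval -1.49 to 0.15; adjusted p = 0.214, limma). As with Ptgs2, control array 2 was the higher, and the gap of 0.854 between control arrays was matched or passed by 3.44% of features. Ptgis, the prostacyclin synthase of vessel walls and fibroblasts, read -0.63 and -0.37 in 3MC+TPA cells, against 0.30 and -0.09 in control cells. Here control array 1 was the higher. The difference was -0.60 ± 0.21 (SE, 95% interval -1.13 to -0.07), or 1.52-fold lower, with an adjusted p of 0.114 by limma.

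For all 5 genes with signal on every array, both 3MC+TPA values lay below both control values. A feature of this kind did so in 31.2% of cases. The 5 differences ranged from -1.60 to -0.24, while the median over all features was -0.01. They share the 4 arrays and their scaling, and without scaling the median of all features moved to 0.34.

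**Figure D2:**
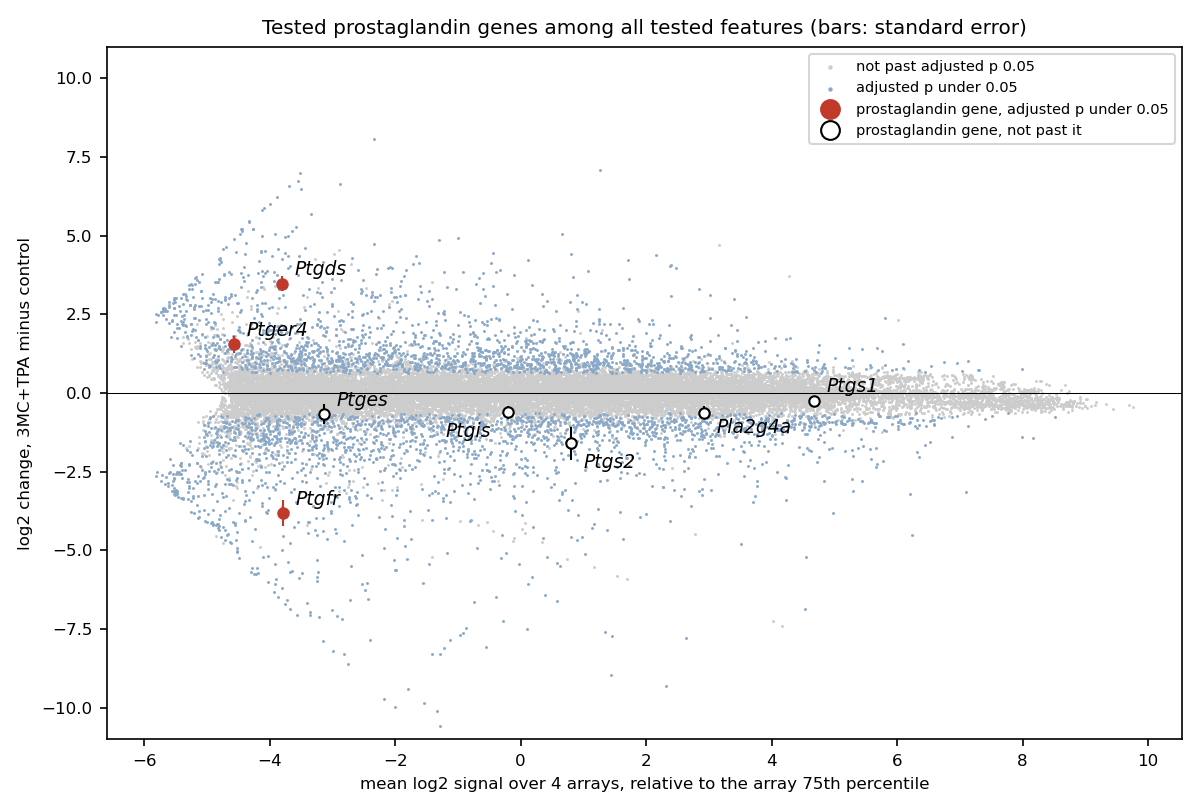
Log2 change, 3MC+TPA minus control (vertical axis), against the mean log2 signal over the 4 arrays (horizontal axis) for every tested feature, with the 8 tested prostaglandin genes named. Filled red points are genes with an adjusted p under 0.05, open points are genes that did not pass, and bars are standard errors. Ptgds, Ptger4 and Ptgfr lie at the dim end. Features there with changes as large in size as those of Ptger4 and Ptgfr can be grey, that is, not called (Csf1r, -1.66, and Akr1c18, -4.21). Pla2g4a, Ptgs1, Ptges and Ptgis lie within or at the edge of the grey band.

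Receptors changed in both directions. Ptgfr, the receptor of prostaglandin F2alpha, which couples to calcium release, read -5.87 and -5.53 in 3MC+TPA cells, not well above background, against -2.48 and -1.30 in control cells. Both control arrays had clear signal and neither 3MC+TPA array did. Ptgfr averaged -5.70 ± 0.24 in 3MC+TPA cells and -1.89 ± 0.83 in control cells (SD, n = 2 arrays each). The fitted difference was -3.81 ± 0.41 (SE, 95% interval -4.86 to -2.76; adjusted p = 0.0065, limma), and the bound was at least 7.58-fold lower. Control array 2 was the higher, as for Ptgs2 and Ptges, and leaving out control array 1 gave a difference of -4.40, leaving out control array 2 one of -3.22. Without 3MC+TPA array 1 it was -3.65 and missed the threshold (adjusted p = 0.0536). With normexp it was -1.67, short of the bound, and passed.

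Ptger4 encodes EP4, a prostaglandin E2 receptor that raises cAMP. It read -3.77 and -3.82 in 3MC+TPA cells, and -5.00 and -5.67 in control cells, where it was not well above background. The 3MC+TPA arrays lay about 1 log2 unit above the dimmest well-measured signal, so this is a dim probe throughout. Ptger4 averaged -3.79 ± 0.04 in 3MC+TPA cells and -5.34 ± 0.47 in control cells (SD, n = 2 arrays each). The fitted difference was 1.54 ± 0.26 (SE, 95% interval 0.89 to 2.20; adjusted p = 0.0203, limma), and the bound was at least 1.94-fold higher. Its call was the least firm of the 3. It was lost with normexp, where the difference was 0.23 (adjusted p = 0.253), and whichever 3MC+TPA array was left out: 1.52 with an adjusted p of 0.107 for array 1, and 1.57 with 0.103 for array 2. Ptger2 encodes EP2, which also raises cAMP. It read -7.15 and -7.12 in 3MC+TPA cells and -7.04 and -7.09 in control cells, below the dimmest well-measured signal throughout, and was not tested.

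The 250 bases before the RefSeq starts of both receptors and of Ptgs2 (GRCm38.p6) are shown because they differ in the motifs searched. Those were TGANTCA, the dioxin response element core GCGTG bound by the aryl hydrocarbon receptor that 3MC activates, the TGACG core of the cAMP response element, the E-box CACGTG, the TATA box TATAAA and the GC box GGGCGG, each on both strands. TTGCGCAA, a C/EBP site, was added to the search after the Ptgs2 window had been read. Capitals mark the matches, and a match on the opposite strand appears as its complement.
Ptger4 promoter, chr15:5244188-5244437, minus strand: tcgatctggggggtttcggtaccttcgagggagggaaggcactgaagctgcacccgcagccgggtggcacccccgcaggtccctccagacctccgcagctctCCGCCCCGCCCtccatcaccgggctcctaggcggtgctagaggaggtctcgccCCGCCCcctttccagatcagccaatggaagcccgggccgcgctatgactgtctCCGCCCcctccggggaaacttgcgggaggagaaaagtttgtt
Ptgfr promoter, chr3:151837529-151837778, minus strand: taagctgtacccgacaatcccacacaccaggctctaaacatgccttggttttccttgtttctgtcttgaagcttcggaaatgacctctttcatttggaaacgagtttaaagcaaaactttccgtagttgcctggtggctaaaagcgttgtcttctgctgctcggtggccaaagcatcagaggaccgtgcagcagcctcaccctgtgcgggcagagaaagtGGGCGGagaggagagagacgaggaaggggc
Ptgs2 promoter, chr1:150099781-150100030, plus strand: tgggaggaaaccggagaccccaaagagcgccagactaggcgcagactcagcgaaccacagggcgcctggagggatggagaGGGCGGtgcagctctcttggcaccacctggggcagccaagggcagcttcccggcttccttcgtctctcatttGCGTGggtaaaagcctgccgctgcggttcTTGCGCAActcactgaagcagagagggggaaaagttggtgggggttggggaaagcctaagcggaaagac
The Ptger4 window held 4 GC boxes, 148, 143, 95 and 42 bases before the start, the first pair sharing a base. Ptgfr held 1 GC box 30 bases before the start, and Ptgs2 held 1 at 170. Ptgs2 also held a GCGTG at 98 and a TTGCGCAA at 69. Of all 32851 windows, 32.7% held GGGCGG, 28.2% GCGTG and 0.164% TTGCGCAA. TGACG (17.8% of windows), CACGTG (6.02%) and TATAAA (12.4%) had no match in these windows or in that of Ptgds. Only the 250 bases before each RefSeq start were searched, so a site outside them would be missed. GC content was 66.8% for Ptger4, 52.0% for Ptgfr, 61.6% for Ptgs2 and 58.4% for Ptgds.

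Inactivation was read through Hpgd, the dehydrogenase that begins the breakdown of prostaglandin E2. Its brighter probe read -7.10 and -7.04 in 3MC+TPA cells and -6.97 and -7.10 in control cells, and its other probe lay between -7.13 and -7.02. Neither was well above background on any array, so a difference was not detectable here.

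**Figure D3:**
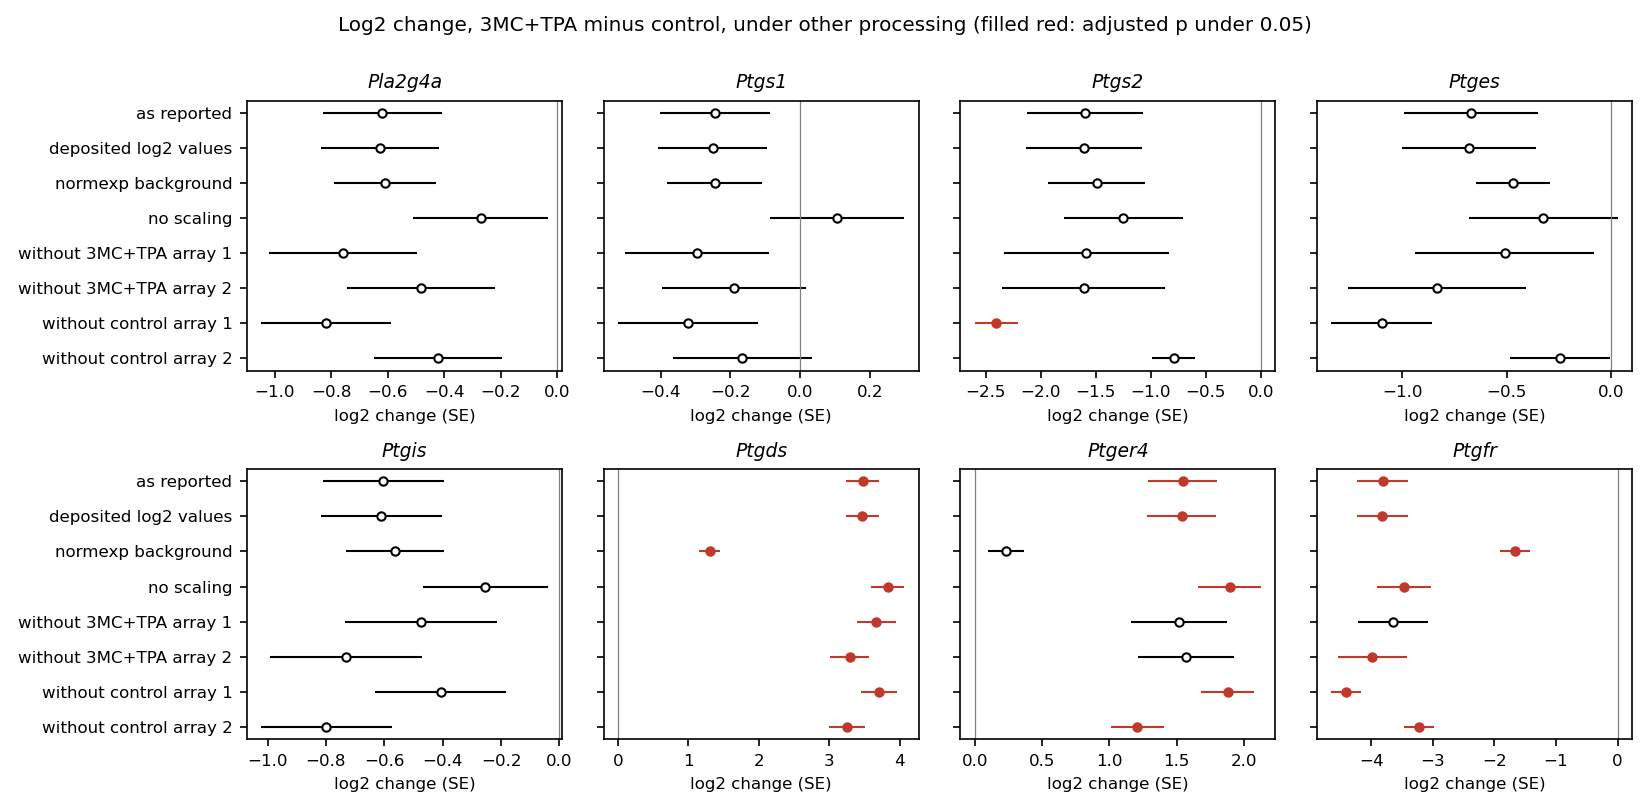
Log2 change with its standard error (horizontal axis, 3MC+TPA minus control) of the 8 tested prostaglandin genes as reported and under 7 other ways of processing, one per line; filled red points had an adjusted p under 0.05. Ptgds stays to the right of 0 and called on every line, Ptger4 loses its call on 3 lines and Ptgfr on 1, Ptgs2 is called only without control array 1, and Ptgs1 crosses 0 without scaling.

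Further genes of the pathway were read in 8 lists of 109 genes in all. Of these, 79 were tested, 10 were higher in 3MC+TPA cells, 9 were lower and 60 were not called. The share called was 24.1%, against 15.9% of all features. Of the 79, 74 had signal on all 4 arrays, and 13.4% of all features of this kind were called. The lists were chosen with earlier results of these data known, so the share is no result about the pathway. The median log2 change of the 79 was 0.11, against -0.01 over all features. In the list of other phospholipases A2, 10 of 19 genes had no signal, and of 8 tested genes 2 were higher and 2 lower (median 0.26). Pla2g5 and Pla2g2d, both secreted enzymes, fell. Pla2g5 read -4.59 and -3.99 in 3MC+TPA cells, against -2.14 and -2.58 in control cells (3.79-fold lower; adjusted p = 0.0137, limma). Pla2g2d read -4.74 and -4.33 in 3MC+TPA cells, the first not well above background, against -3.03 and -2.26 in control cells (-1.89 ± 0.31; adjusted p = 0.0198). Secreted Pla2g2e rose, with -0.05 on both 3MC+TPA arrays, against -1.63 and -1.58 on the control arrays. It was 2.93-fold higher (adjusted p = 0.00451, limma), and its second probe was called in the same direction with 1.33.

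Among 11 genes that supply or take back arachidonic acid, all were tested, 1 was higher and 2 were lower (median -0.14). Mgll, the monoacylglycerol lipase that frees arachidonic acid from the endocannabinoid 2-arachidonoylglycerol, read -0.34 and -0.23 in 3MC+TPA cells, against 1.01 and 1.32 in control cells, and was 2.74-fold lower (adjusted p = 0.00927, limma), with its second probe lower as well. Acsl4, which attaches arachidonic acid to coenzyme A, was 2.11-fold lower (adjusted p = 0.0491), and its second probe did not pass (adjusted p = 0.0896, limma over probes). Dagla, which makes 2-arachidonoylglycerol, was 1.55-fold higher (adjusted p = 0.0484). The same Dagla probe did not pass in the fit over probes (adjusted p = 0.0507, limma), and its second probe had no signal on any array. Acsl4 and Dagla both lay close to the threshold, and each lost its call when any one of the 4 arrays was left out.

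Of 7 other prostanoid synthases, 5 were tested and 1 was lower (median -0.61). Prxl2b, the prostamide and prostaglandin F synthase, named 2810405K02Rik in the files, read -6.57 and -7.10 in 3MC+TPA cells, not well above background, against 0.21 and 0.03 in control cells. It was at least 30.4-fold lower (adjusted p = 0.000268, limma), and it passed the filter only through control cells, which favours a difference. With normexp the log2 difference of Prxl2b was -3.55, short of that bound, and still passed (adjusted p = 3.76e-05, limma). Akr1b3, which can also make prostaglandin F2alpha, and the related aldo-keto reductase Akr1c18 were not called (adjusted p = 0.454 and 0.125). Akr1b3 read 4.35 and 4.37 in 3MC+TPA cells, against 4.36 and 4.90 in control cells. Akr1c18 read -4.76 and -6.28 in 3MC+TPA cells, not well above background. Its control arrays stood far apart, at -3.58 and 0.96, and its difference was -4.21 ± 1.51 (SE). Hpgds, the haematopoietic prostaglandin D2 synthase, and Tbxas1, the thromboxane synthase, had no signal. Of 6 other prostanoid receptors, 4 were tested and 1 was lower (median -0.38). This was Ptgir, the prostacyclin receptor, with -1.24 and -1.46 in 3MC+TPA cells and 0.29 and -0.18 in control cells, or 2.65-fold lower (adjusted p = 0.0175, limma). A second Ptgir probe was well above background on only 2 arrays and not tested. Its groups overlapped, at -4.97 and -4.44 in 3MC+TPA cells and -4.19 and -4.90 in control cells. Ptgdr, a receptor of the prostaglandin D2 that Ptgds makes, had no signal, and the other one, Ptgdr2, did not pass (0.16, adjusted p = 0.565). All 6 genes of transport and inactivation were tested and 1 was lower (median -0.65). Cbr1, a carbonyl reductase that can turn prostaglandin E2 into F2alpha, read 2.28 and 2.43 in 3MC+TPA cells, against 3.43 and 3.60 in control cells, and was 2.23-fold lower (adjusted p = 0.013, limma).

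In the lipoxygenase branch, which makes leukotrienes from the same arachidonic acid, 4 of 15 genes were tested and 1 was higher (median 0.42). Alox5ap, which presents arachidonic acid to 5-lipoxygenase, read 1.11 and 1.16 in 3MC+TPA cells, against -0.67 and -0.36 in control cells, and was 3.15-fold higher (adjusted p = 0.00632, limma). The lipoxygenase itself, Alox5, had no signal on any array. Of 25 regulators of Ptgs2 and of cytosolic phospholipase A2, 22 were tested, 2 were higher and 1 was lower (median 0.10), and the inducers Il1a, Il1b and Tnf had no signal. Celf2, named Cugbp2 in the files, an RNA-binding protein known to hold back Ptgs2 translation, read 1.17 and 0.84 in 3MC+TPA cells, against -1.69 and -4.02 in control cells. It was 14.5-fold higher (3.86 ± 0.75; adjusted p = 0.0305, limma), and all 3 of its probes were called higher. Its control arrays stood far apart, and leaving out control array 1 gave a difference of 5.02, leaving out control array 2 one of 2.69. Zfp36, tristetraprolin, which speeds the decay of AU-rich mRNAs, was 1.63-fold higher (adjusted p = 0.042), and Cebpd, a C/EBP transcription factor, was 1.85-fold lower (adjusted p = 0.0498). Both of these missed the threshold when any one array was left out.

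Genes known to respond to cAMP, the messenger that EP2 and EP4 raise, were the last list. Of 20 genes, 19 were tested, 4 were higher and 1 was lower (median 0.47). Has2, a hyaluronan synthase, read -2.68 and -3.64 in 3MC+TPA cells, against 1.12 and 2.40 in control cells, and was 30.4-fold lower (-4.93 ± 0.52; adjusted p = 0.0062, limma). Leaving out control array 1 gave -5.56, and leaving out control array 2 gave -4.29. Areg, the growth factor amphiregulin, read -3.91 and -3.77 in 3MC+TPA cells, against -6.97 and -6.63 in control cells, where it was not well above background. It was at least 1.88-fold higher (adjusted p = 0.00149, limma). It passed the filter only through 3MC+TPA cells, which favours a difference, and with normexp the call was lost (0.43, adjusted p = 0.0536). Crem, a cAMP-responsive transcription factor, read 0.29 and 0.32 in 3MC+TPA cells, against -1.16 and -0.99 in control cells, and was 2.60-fold higher (adjusted p = 0.00745, limma) with all 5 tested probes called. The genes of the list that moved did so in both directions.

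Over the 16 genes named from these lists, 11 lost their call without 3MC+TPA array 1 (adjusted p 0.0509 to 0.167), 11 without 3MC+TPA array 2 (0.0514 to 0.195), 6 without control array 1 (0.0538 to 0.137) and 6 without control array 2 (0.0556 to 0.185). Acsl4, Dagla, Cebpd and Zfp36 lost it in all 4 cases, Ptgir, Pla2g2d and Cbr1 in 3, Pla2g5, Mgll, Celf2 and Crem in 2 and Alox5ap in 1. Pla2g2e, Prxl2b, Has2 and Areg kept it in all 4 cases. The direction of the 16 could not turn here, since the groups did not overlap for any of them.

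**Figure D4:**
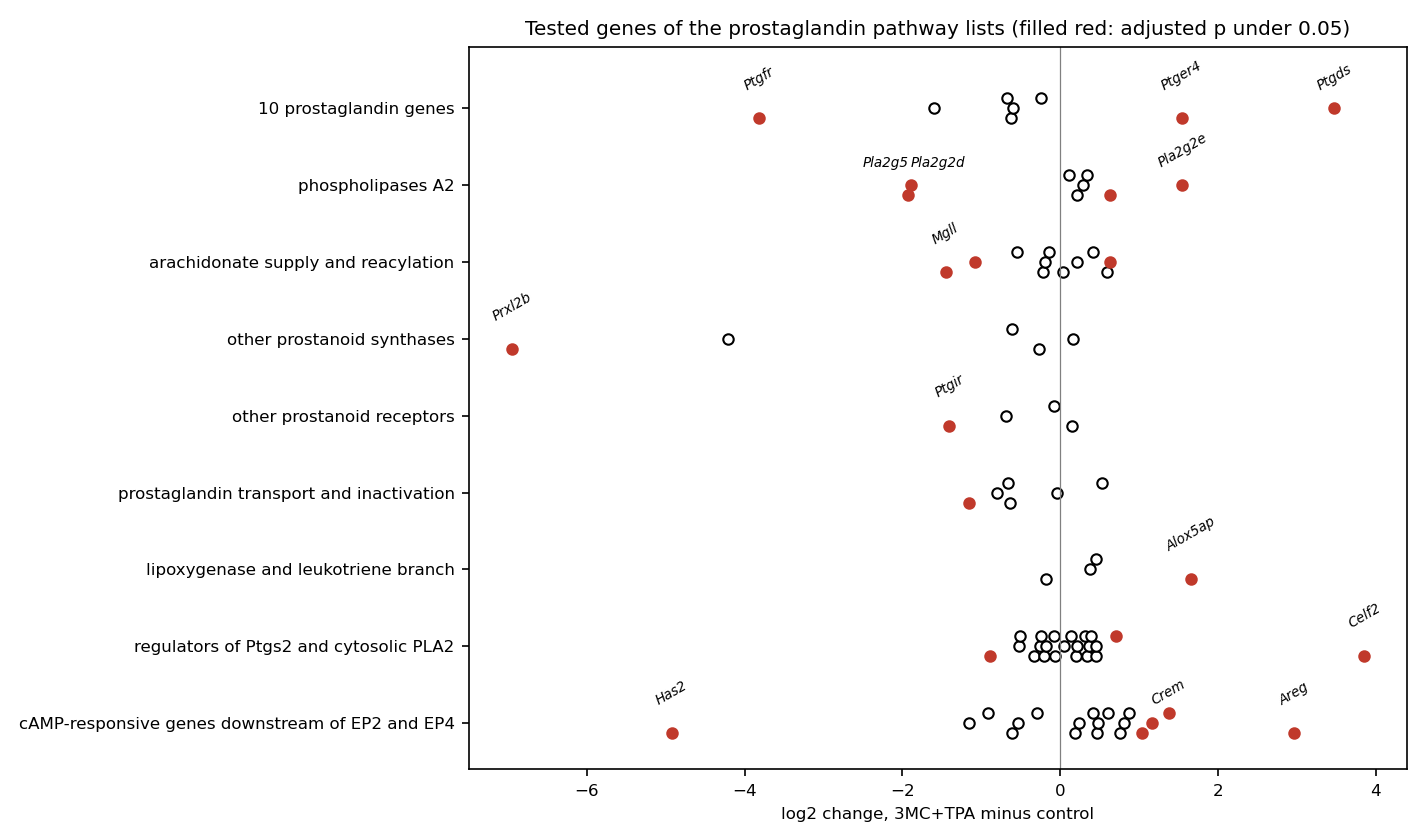
Log2 change, 3MC+TPA minus control (horizontal axis), of each tested gene of the prostaglandin list and of the 8 further pathway lists, one list per line; points are spread vertically only to keep them apart. Filled red points had an adjusted p under 0.05. Called genes lie on both sides of 0 in the prostaglandin, phospholipase, arachidonate supply, regulator and cAMP lists, and the called genes of the synthase, receptor and transport lists lie to the left.

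**Figure D5:**
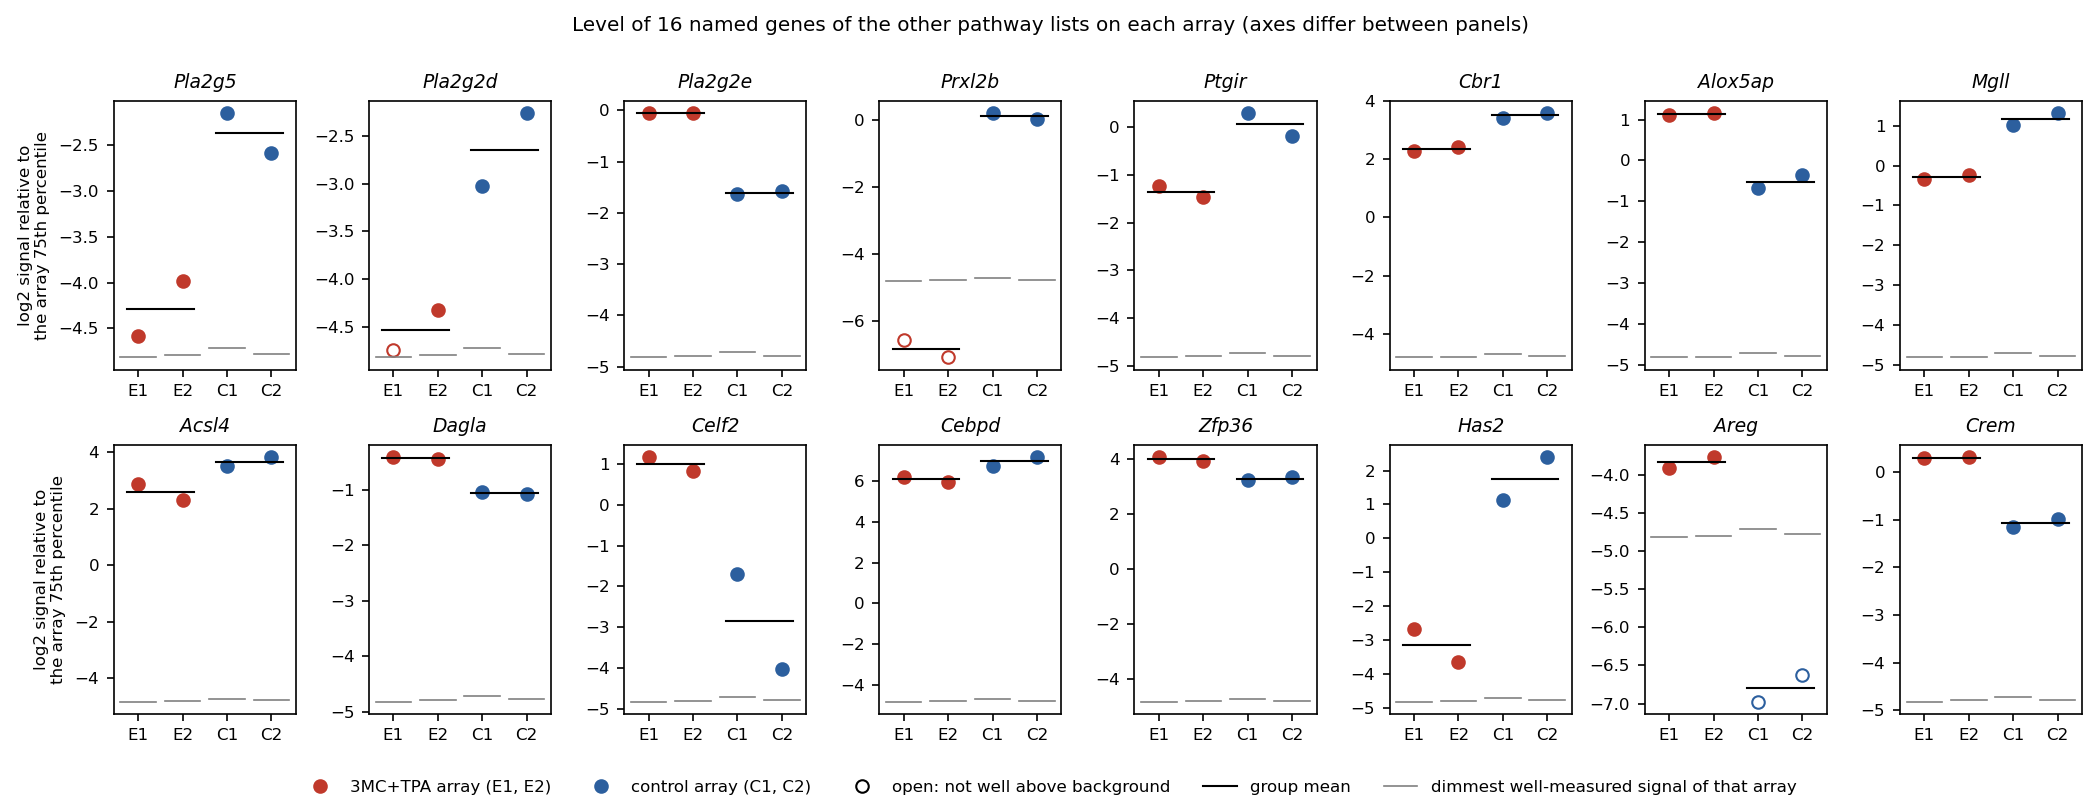
Level of the 16 named genes of the further pathway lists on each array, in log2 units above or below the 75th percentile of that array (vertical axis, its range set for each panel), with 3MC+TPA arrays in red (E1, E2) and control arrays in blue (C1, C2). Open points were not well above background, black lines are group means and grey lines mark the dimmest well-measured signal of each array. In every panel both 3MC+TPA points lie on one side of both control points. This is likely from the choice of called genes with the largest changes. Prxl2b and Areg each fall below the grey line in 1 group.

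The arrays had 61657 non-control spots each, of which 32222 and 32512 were well above background on the 3MC+TPA arrays and 32125 and 32415 on the control arrays. Before scaling, the 75th percentile signals were 701.3 and 747.2 on the 3MC+TPA arrays, against 543.1 and 595.2 on the control arrays. Without scaling 5321 features were called higher and 1404 lower, against 1870 and 2090 as reported. All 15 fibroblast markers were well above background on all 4 arrays. Thy1 was called higher in 3MC+TPA cells (2.98), with control arrays 2.12 apart, and Dcn (-2.04), Pdgfra (-1.47) and Pdgfrb (-1.02) were lower, with a summed log2 signal of the list of 10.83 and 10.89 in 3MC+TPA cells and 11.21 and 11.04 in control cells. Of 14 leukocyte markers 9 had no signal, Ptprc, Itgam, Adgre1 and Lyz2 among them, and 0 of 4 tested ones were called by limma. Their summed log2 signal was -1.12 and -0.98 in 3MC+TPA cells, against -1.18 and -0.97 in control cells. Of 9 epithelial markers 5 had no signal, Cdh1 among them, and 0 of 3 tested ones were called, with sums of -1.74 and -1.61 in 3MC+TPA cells and -1.70 and -1.62 in control cells. Of 8 endothelial markers 5 had no signal, Pecam1, Cdh5 and Kdr among them. Of 3 tested ones Tek was called higher, by at least 1.77-fold, with control arrays not well above background, and the sums were -2.50 and -2.17 in 3MC+TPA cells, against -2.07 and -2.36 in control cells. The part of any other cell type in the prostaglandin values was not tested.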

How the data were processed

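RNA was read on 4 arrays in 1 colour (Cy3). The processed signal was made by Agilent Feature Extraction 10.7.3.1, per the file headers, and is an intensity after background subtraction and detrending, with a substitute for dim spots; the mean and background intensity are unprocessed. The deposited table holds the authors' log2 values (GeneSpring GX 11.5, per the series' design text). Set against the scanner files, at least 61237 of 61307 probes per array equalled, within 0.02, the log2 processed signal less that array's 75th percentile. Its genes are not centred, and its column medians are -4.39 and -4.35 for 3MC+TPA and -4.29 and -4.31 for control arrays.

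The values used are log2 processed signals less the 75th percentile over non-control spots. The 1319 control spots and 31, 68, 42 and 20 outlier spots (3MC+TPA arrays 1 and 2, control arrays 1 and 2) were left out, and 0 were saturated. A feature, a gene name read by its brightest probe, was tested when the scanner flagged both arrays of at least 1 group as well above background (24977 of 50090). Groups, from the sample labels, were compared with limma 3.58.1 in R 4.3.3 (lmFit, eBayes, 2-sided, no covariate, Benjamini-Hochberg over all features, threshold 0.05); the fit was tested on simulated data. A group below background gives a bound: the other group's mean over the mean, per array, of its dimmest well-measured signal or, if higher, the dim probe's own. The bound leaves out the spread between arrays and holds for this background correction only. An exact permutation test of 2 against 2 arrays cannot go below 0.333, so none is given.

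The genes and lists were chosen with earlier results of these data known. All 10 genes are named, with up to 3 called genes of largest change per further list; markers and a few genes that did not pass were named to complete a count. Accessions in a RefSeq gene table (GRCm38.p6) covered 28136 probes and all 10 genes; 9 of these had a promoter entry. The labels do not say whether a group's 2 arrays hold separate cultures; p-values then measure only how far these arrays spread, which may be technical. All 4 lay on 1 slide with 1 scan, with groups at separate positions: group and position cannot be told apart, and a slide block was not possible. Replicate numbers in the titles did not pair the arrays. Alternatives were the deposited values, normexp, other scalings, filters, probe means, variance models, the methods' t-test (threshold not given in the sources used here), a replicate block, a 2-fold limit and leaving out each array.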

Additional observations from a re-analysis of the deposited data

How the results depend on the processing

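As reported, 3960 features were called. Counted anew under each setting, 6725 were called without scaling between arrays, 907 with no filter on dim probes (50090 features tested), 23 with the methods' t-test after adjustment and 1427 to 2803 when 1 array was left out. Of the prostaglandin genes, 3 were called as reported and 1 with no filter. The adjusted t-test called 0 of them, and its unadjusted p was under 0.05 for 3, as for 5721 of 24919 features. These 3 passed the filter through 1 group only, which favours a difference. Requiring signal on all 4 arrays removes these 3 and left 0 called prostaglandin genes. Leaving out 1 array gave a count of 1 to 4: 1 without 3MC+TPA array 1, and 4 without control array 1, where Ptgs2 is the added gene. Their probes gave 3 as reported, 1 with no filter, 0 on all 4 arrays, 0 with the adjusted t-test and 1 to 5 with 1 array left out. The further lists had 19 called genes as reported, 4 with no filter, 0 with the adjusted t-test and 5 to 14 with 1 array left out; these counts can hold genes that are not among the 19. Ptgs1 turned to 0.11 without scaling. The cause of the other differences was not tested.

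Over 141 settings of the 8 tested prostaglandin genes, 130 kept direction and side of the threshold, 9 lost the call (Ptgds 1, Ptger4 5, Ptgfr 3), 1 gained it (Ptgs2) and 1 turned (Ptgs1). The direction could not turn under the filters, variance models, t-test, block or 2-fold limit, which reuse the same log2 change. Leaving out 1 array could not turn it either, since the groups did not overlap for any of the 8. Requiring signal on all 4 arrays removes Ptgds, Ptger4 and Ptgfr, and that setting is not among those counted for them. Ptgds ranged from 1.30 to 3.83, Ptger4 from 0.23 to 1.89 and Ptgfr from -4.40 to -1.67. With the replicate number as a block, 3 prostaglandin genes, 3 of their probes, 16 genes of the further lists and 3587 features were called; same-numbered arrays did not deviate together (correlation 0.0028). The signal over background limits Ptger2 and Hpgd on all arrays, and Ptgds, Ptger4 and Ptgfr in 1 group. With 2 arrays a group, intervals are wide.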
